A study of Rattus with 9 samples.

Results

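Bile acid transporters and receptors were followed through the cells of the rat bile duct. The genes were chosen by name, with no measured value used in the choice, though earlier results of these data were known. Of the 10 listed, 9 were found among 23836 gene symbols. They were Slc10a2, Slc51a, Slc51b, Abcc2, Abcc3, Abcc4, Gpbar1, Nr1h4 and Fabp6. The tenth, Abcb1a, was not analysed here. Single-cell RNA sequencing with droplet capture of the 3′ ends of transcripts was performed on whole bile duct, which had been digested with enzymes and depleted of red blood cells and dead cells. The sham group held 3 samples. The ctrl group held bile ducts of transplanted livers with ischemic injury, with 1 sample each at days 1, 3 and 7 after transplantation. The treat group had the same transplantation and, in addition, ligation of the splenic and gastroduodenal arteries to raise hepatic arterial flow, again with 1 sample at each of days 1, 3 and 7. The labels used here gave neither the strain, sex and age of the rats nor a day for the sham samples, and they did not state whether a sample was 1 animal or a pool.

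Bile acids are made in hepatocytes, secreted into bile and partly taken back along the biliary tree and the ileum. In biliary epithelial cells (BEC) the apical sodium-dependent transporter encoded by Slc10a2 brings bile acids in from the lumen. The heterodimer of Slc51a and Slc51b, known as OSTα and OSTβ, and the ATP-driven pump Abcc3 (MRP3) pass organic anions across the basolateral membrane, while Abcc2 (MRP2) is an apical pump. Abcc4 (MRP4) exports bile acids, cyclic nucleotides and prostaglandins from many cell types. Inside the cell Fabp6 is the ileal bile acid-binding protein. Bile acids are sensed by the nuclear receptor FXR, encoded by Nr1h4, and at the cell surface by the G protein-coupled receptor TGR5, encoded by Gpbar1.

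After filtering, 140366 cells remained from 20 libraries. The total number of unique molecular identifiers (UMIs) lay between 21270647 and 290590249 per sample. Clusters were named from marker lists, and 38 of 55 clusters fell into 18 named classes. The names end in "-like" because they rest on those lists. BEC-like cells formed 7 clusters with 16410 cells, and all 12 BEC markers were detected in them, with Krt7 at 2295 and Epcam at 2375 CPM. Taken cluster by cluster, 7 to 12 of these markers were detected by the rule used for naming. CPM is the UMI count of a gene scaled to a fixed total of UMIs of the same cells. It was not divided by transcript length, so levels are compared between cells and not between genes. BEC-like cells made up 12.5% to 19.5% of the cells of sham samples, 7.27% to 21.8% of ctrl and 6.21% to 15.1% of treat. RNA released by broken cells was estimated from near-empty droplets and took 2.19% to 9.74% of the UMIs of BEC-like cells per library. In 38 simulated sums of BEC-like cells the estimate was 0.60 to 1.01 of the true share, so it can run low. Treat day 3 is represented by libraries 2 and 3, and its library 1 was not analysed here. Libraries 2 and 3 of ctrl day 3 kept only 385 and 318 cells after a limit on hemoglobin UMIs, so this sample rests mainly on its first library. Because libraries are not tied to animals, p-values over the 9 samples measure the spread between these samples. The 3 samples of ctrl, and those of treat, are of different days, so the spread and SD within these groups include the day.

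All 9 genes were sparse. Over all cells there were 8840 UMIs of Gpbar1, 4222 of Abcc4, 1016 of Nr1h4, 844 of Abcc3, 548 of Slc10a2, 272 of Slc51a, 188 of Abcc2, 158 of Slc51b and 4 of Fabp6. They were spread differently over the classes. Slc10a2, Slc51a, Nr1h4 and Abcc3 had the greatest share of their UMIs in BEC-like cells, whereas Gpbar1 and Slc51b lay almost wholly in fibroblast-like cells and Abcc2 was led by endothelial cell (EC)-like cells. Classes were formed from the expression of the same cells, so the order of classes is a description with no test.

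**Figure D1:**
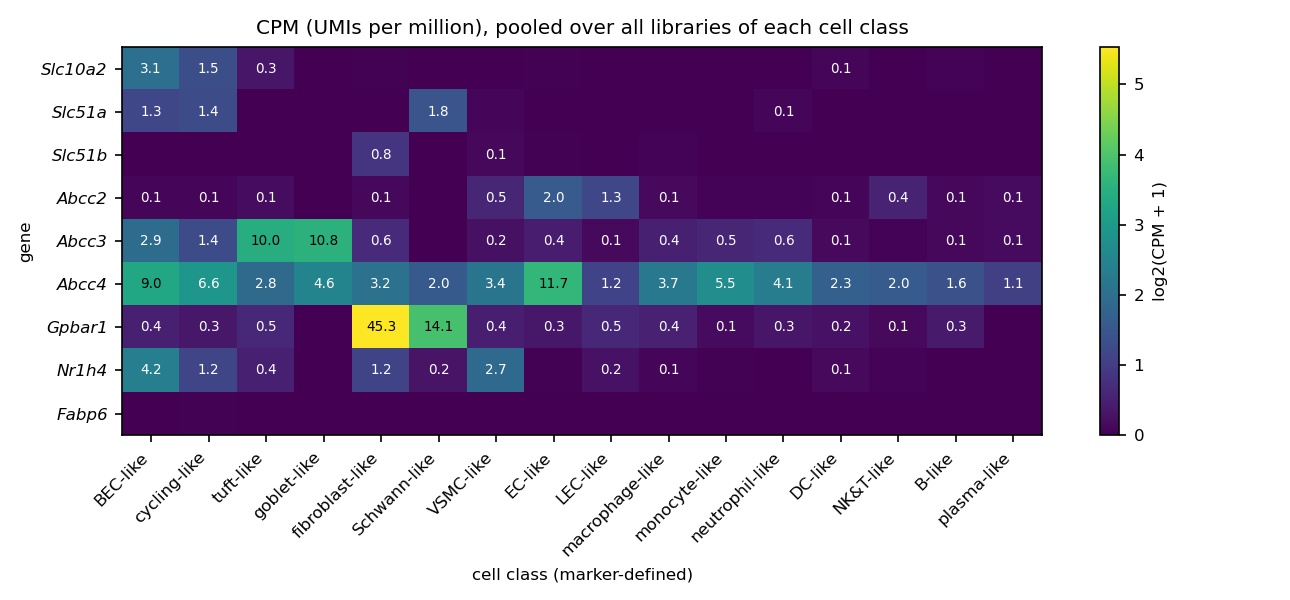
Pooled level of each gene (rows) in 16 named cell classes (columns), printed in each cell as CPM and colored by log2(CPM + 1); acinar-like and mast-like cells are left out. Gpbar1 stands out in fibroblast-like cells at 45.3 CPM, Slc10a2 and Nr1h4 in BEC-like cells at 3.06 and 4.25 CPM, and Abcc4 is present in every class shown.

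The uptake carrier Slc10a2 was an epithelial transcript. BEC-like cells held 444 of its 548 UMIs (81.0%), against 3.09 UMIs that the free RNA estimate gave for them, and cycling-like cells a further 14.6%. In fibroblast-like cells 4 UMIs were counted in all 9 samples. BEC-like cells were the highest class in 8 of 9 samples, with a median of 2.76 CPM against 1.36 in cycling-like cells, and they were above the cycling-like cells in 7 of 8 samples with both classes. Few cells carried a UMI. After each cell was thinned to 2000 UMIs the share of BEC-like cells with an Slc10a2 UMI was between 0.16% and 1.02% per sample, and without thinning between 0.67% and 3.83%. In NK&T-like cells, a lymphoid class that should lack the gene, 1 UMI was found in all samples.

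Within BEC-like cells Slc10a2 read higher at day 7 than at days 1 and 3 in both transplanted arms. The sham samples read 2.76, 3.03 and 3.55 CPM. Ctrl samples read 0.60 CPM at day 1, 1.52 at day 3 and 5.76 at day 7, and treat samples 2.58, 1.47 and 5.93 CPM at the same days. Both day 7 samples were above all 3 sham samples, and the 4 samples of days 1 and 3 were below them. Each day is 1 sample per arm, and the days were not tested against each other. The shares of the BEC-like clusters, given below, also differed between these samples, and their part in this order was not tested. The libraries of one sample also differed, with 4.27, 12.1 and 1.73 CPM in the 3 libraries of treat day 7. The second of these held 92 of the 139 UMIs, and without it treat day 7 read 2.97 CPM, within the sham range. Treat day 1 read between 1.82 and 3.18 CPM on leaving out 1 of its libraries, so its place below the sham samples also rests on single libraries. Ctrl day 7 stayed above the sham samples without any one library, at 4.53 to 6.79 CPM. Group means were 3.11 ± 0.40 CPM in sham, 2.63 ± 2.75 in ctrl and 3.33 ± 2.33 in treat (SD, n = 3 samples each).

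OSTα and OSTβ, which work as a pair, had most of their UMIs in different classes. Slc51a had 67.3% of its UMIs in BEC-like cells and 27.2% in cycling-like cells, and the 2 classes could not be ordered, BEC-like cells being higher in 3 of 8 samples. Schwann-like cells read highest in sham 2, at 9.59 CPM, and in ctrl day 7, at 5.25 CPM, from 8 UMIs in all. Slc51b was absent from the counts of BEC-like cells, at 0 of 145006241 UMIs, which allows a level of up to 0.0207 CPM. Its UMIs lay in fibroblast-like cells (95.6%), where 151 were counted against 1.45 estimated from free RNA. Intervals and limits of this kind cover counting error only.

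In BEC-like cells Slc51a read 3.68, 2.51 and 1.87 CPM in the sham samples. It read 0.094, 2.44 and 2.26 CPM in ctrl at days 1, 3 and 7, and 1.14, 0.47 and 1.02 CPM in treat. All 3 treat samples were below all 3 sham samples, while the ctrl group overlapped the sham range. The means were 2.69 ± 0.92 CPM in sham, 1.60 ± 1.31 in ctrl and 0.88 ± 0.36 in treat (SD, n = 3), and ctrl day 1 rested on 3 UMIs. In fibroblast-like cells Slc51b read 0, 0.18 and 0.088 CPM in sham, 1.10, 1.41 and 2.37 CPM in ctrl at days 1, 3 and 7, and 1.13, 0 and 0.25 CPM in treat. The ctrl samples lay above sham 2 and 3, whereas sham 1, with 72 of these cells, allows a level of up to 5.84 CPM and could not be placed below them. Of the 151 UMIs 98 came from treat day 1, and the gene did not pass the filter on low counts in this class, so it was not tested there.

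Of the 3 ABC pumps, Abcc4 was the most widely spread. Its UMIs were 30.9% in BEC-like and 9.17% in EC-like cells, and no class led in more than 3 of 9 samples. EC-like cells had a median of 11.5 CPM over samples and BEC-like cells 10.3, with EC-like above BEC-like in 7 of 9 samples. Abcc3 had 49.4% of its UMIs in BEC-like cells. The highest level was in tuft-like cells, chemosensory epithelial cells, in 7 of 9 samples: they held 0.88% of all UMIs but 8.89% of those of Abcc3. Per sample the tuft-like level of Abcc3 was 7.40, 13.1 and 10.1 CPM in sham, 9.43, 4.28 and 10.5 CPM in ctrl, and 16.6, 0 and 7.83 CPM in treat, resting on 75 UMIs in all. Goblet-like cells had 7 Abcc3 UMIs, or 10.8 CPM. The apical pump Abcc2 was nearly missing from the epithelium, with 10 UMIs in BEC-like cells, and 67 of its 188 UMIs (35.6%) lay in EC-like cells against 0.32 estimated from free RNA. NK&T-like cells held another 41 (21.8%). EC-like cells were the highest class in 5 of 9 samples and NK&T-like cells in sham 1 and 2, at 2.49 and 4.07 CPM. In those 2 samples the class had only 107 and 92 cells, so its place there rests on very few UMIs.

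Abcc4 in BEC-like cells had lower values in 5 of 6 transplanted samples than in any sham sample, a difference that missed the threshold. The sham samples read 18.7, 11.9 and 13.5 CPM. Ctrl samples read 3.39, 5.18 and 10.3 CPM at days 1, 3 and 7, and treat samples 6.59, 7.40 and 13.7 CPM. The 3 ctrl samples were all below the 3 sham samples, whereas treat day 7 lay within the sham range. In each arm the lowest sample was day 1 and the highest day 7. Without library 3 treat day 3 read 6.26 CPM, so the order of days 1 and 3 in treat rests on single libraries. The means were 14.7 ± 3.56 CPM in sham, 6.30 ± 3.61 in ctrl and 9.22 ± 3.87 in treat (SD, n = 3). Abcc3 showed no such gap, with 4.59, 2.86 and 2.93 CPM in sham, 1.29, 2.44 and 3.99 CPM in ctrl, and 2.52, 1.88 and 5.00 CPM in treat.

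**Figure D2:**
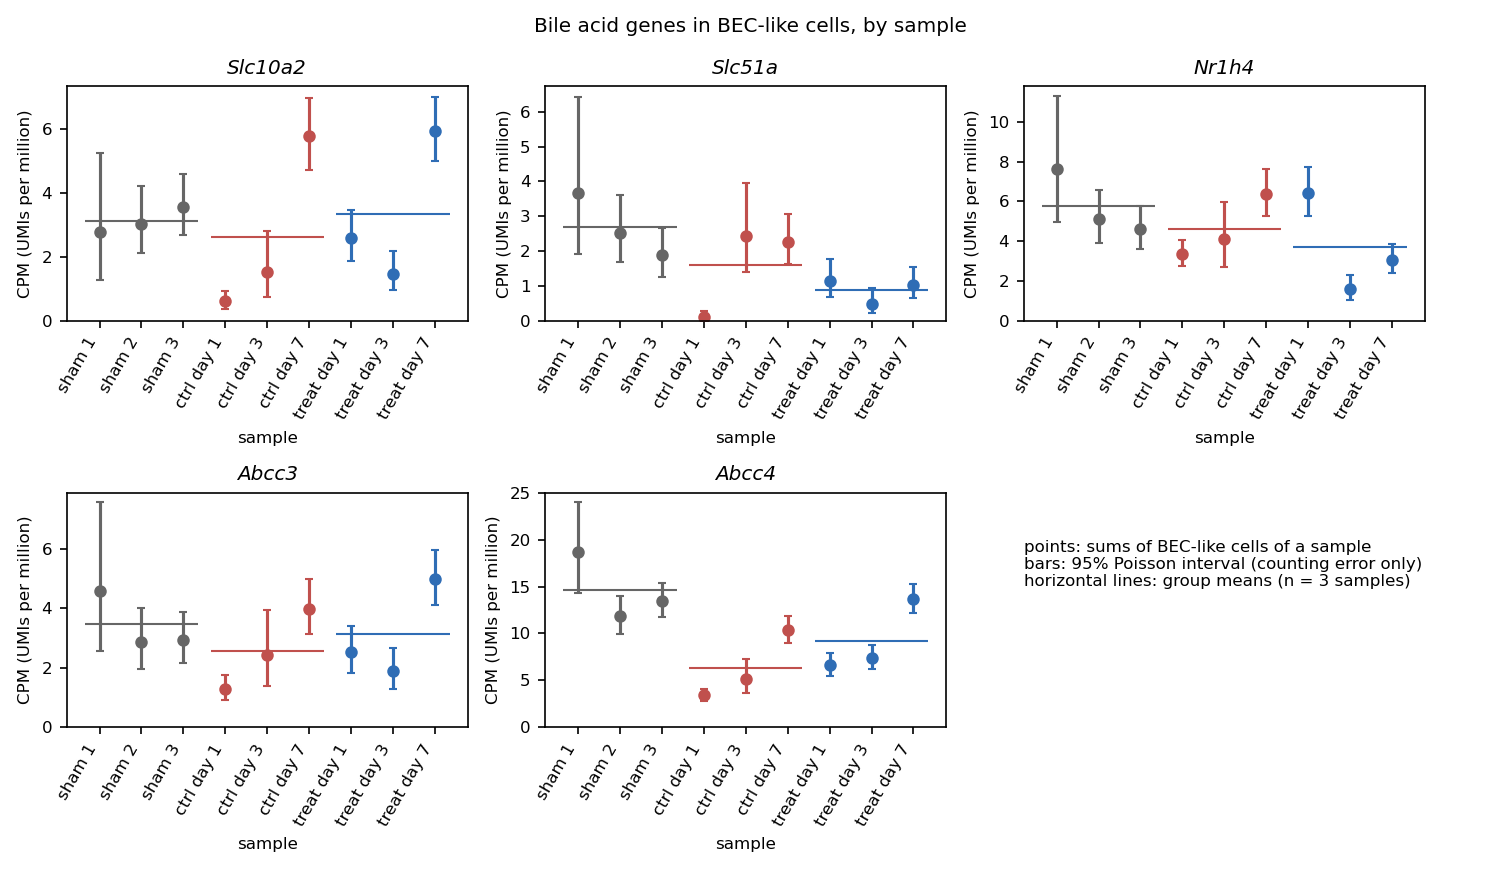
Levels of the 5 tested genes in BEC-like cells as CPM on the vertical axis, with 1 point per sample on the horizontal axis, bars of the 95% Poisson interval (counting error only) and horizontal lines at the group means of 3 samples. For Abcc4 all 3 ctrl samples sit below all 3 sham samples, and for Slc51a all 3 treat samples do, whereas sham and both transplanted groups overlap in Nr1h4 and Abcc3.

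The transcripts of FXR lay mostly, but not wholly, in the epithelium. Nr1h4 had 60.6% of its UMIs in BEC-like cells, where 616 were counted against 7.09 from free RNA, 22.4% in fibroblast-like and 5.71% in vascular smooth muscle cell (VSMC)-like cells. BEC-like cells had the highest level in 8 of 9 samples, with a median of 4.61 CPM against 1.64 in VSMC-like cells. The exception was treat day 3, at 1.59 CPM in BEC-like and 6.80 CPM in VSMC-like cells. The sham samples read 7.66, 5.11 and 4.61 CPM in BEC-like cells, ctrl 3.36, 4.12 and 6.35 CPM at days 1, 3 and 7, and treat 6.41, 1.59 and 3.07 CPM. All 3 groups overlapped. Of the samples with 3 libraries of at least 100 BEC-like cells, library 1 was highest in 4 of 4, for example 10.0 CPM against 0.87 and 1.08 in ctrl day 1. This order was seen for 6.52% of genes with at least 100 UMIs, so it is not particular to Nr1h4, and the part of the library in the result was not tested. Treat day 3, the lowest sample, had no library 1 in these data. Without library 1, ctrl days 1 and 7 read 0.98 and 2.60 CPM and treat days 1 and 7 read 3.62 and 2.04 CPM. Treat day 3 itself read 2.77 CPM in library 2 alone and 0.46 CPM, from 4 UMIs, in library 3 alone, so the order of the low samples rests on single libraries. In the same 2 libraries Slc10a2 read 2.17 and 0.80 CPM, Slc51a 0.96 and 0 CPM and Abcc3 2.77 and 1.03 CPM.

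The groups were compared by edgeR's quasi-likelihood test on UMIs summed per sample, with Benjamini-Hochberg adjustment over all genes tested. In BEC-like cells 5 of the 9 genes passed the filter on low counts. The other 4, Slc51b, Abcc2, Gpbar1 and Fabp6, were too low to test. For all 6 transplanted samples against sham, 0 of 5 were called at an adjusted p of 0.05, where 4.12% of 12968 genes were. Under an unadjusted p of 0.05 there was 1, Abcc4, where 2975 of the 12968 genes were. DESeq2 called 0 of 5, where it called 10.6% of genes. Abcc4 had a log2 fold change of -0.75 ± 0.31 (SE, adjusted p = 0.191). Slc51a had -0.9998 ± 0.70 (adjusted p = 0.439), Nr1h4 -0.27 ± 0.39 (adjusted p = 0.725), Abcc3 -0.08 ± 0.39 (adjusted p = 0.932) and Slc10a2 0.04 ± 0.62 (adjusted p = 0.977). In data simulated for this comparison 93% of genes changed 4-fold and 21% of those changed 2-fold were recovered. The simulation used the same dispersion for every gene and no effect of the day. Its changed genes were drawn at random from all genes that passed the filter. These shares therefore do not give the power for the 5 sparse genes.

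Ctrl against sham alone gave 0 of 5 genes, where 6.28% of genes were called. Abcc4 was again the one at an unadjusted p under 0.05, where 3383 of 12968 genes were. Its value was -0.98 ± 0.37 (adjusted p = 0.135). Without ctrl day 7 its value was -1.47 and the adjusted p 0.031, so the call depends on that sample. The share of all genes called in that fit is not given here. Treat against sham gave 0 of 5, with 0.324% of genes called. The question of the study was whether raised arterial flow changes the duct, which treat against ctrl addresses. Here 0 of 5 genes were called and 0 were under an unadjusted p of 0.05, DESeq2 called 0, and the share of all genes called was 0%. The log2 fold changes, treat against ctrl, were 0.47 ± 0.37 for Abcc4 (adjusted p = 0.70), 0.26 ± 0.70 for Slc10a2 (adjusted p = 0.927), 0.20 ± 0.43 for Abcc3 (adjusted p = 0.905), -0.42 ± 0.44 for Nr1h4 (adjusted p = 0.784) and -0.83 ± 0.84 for Slc51a (adjusted p = 0.775). Over all genes 1269 had an unadjusted p under 0.05 in this comparison, and DESeq2 called 114.

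**Figure D3:**
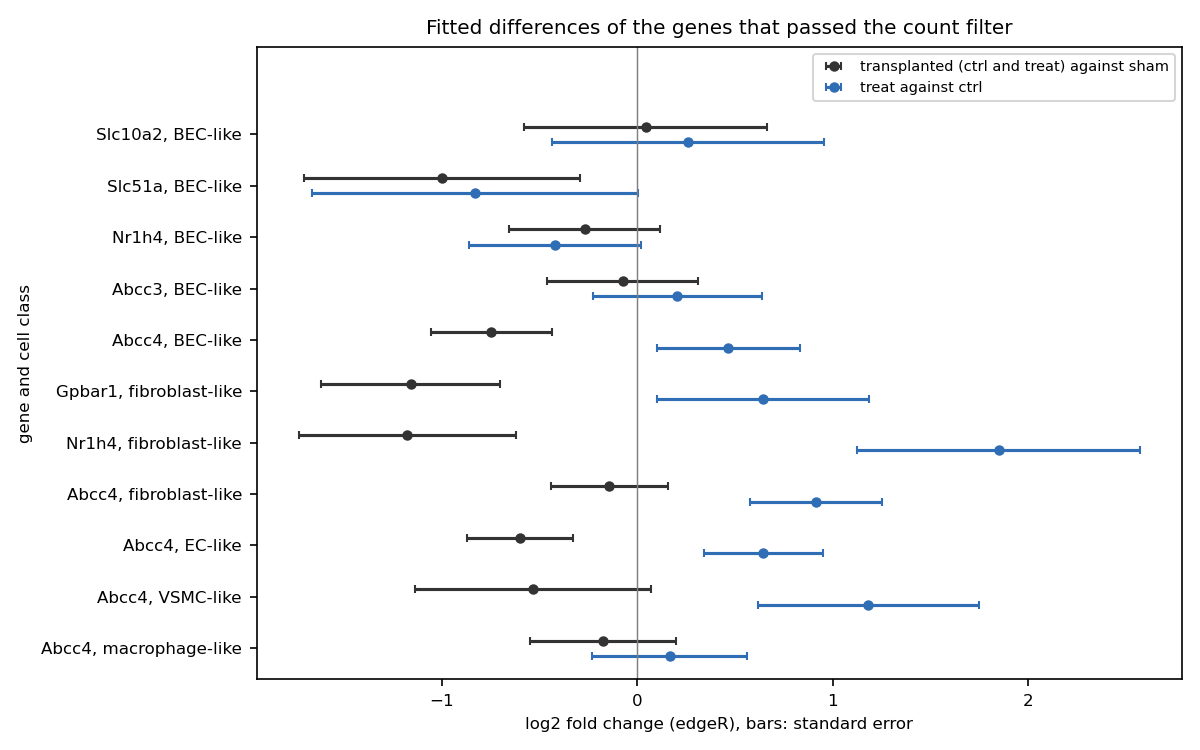
Fitted log2 fold changes (horizontal axis) of the genes that passed the count filter, by gene and cell class, for transplanted against sham (black) and treat against ctrl (blue), with bars of 1 SE. Against sham Gpbar1 and Nr1h4 in fibroblast-like cells and Slc51a in BEC-like cells lie lowest, at -1.16, -1.18 and -0.9998, and none of the differences shown passed the threshold. The value of Nr1h4 joins -2.10 in ctrl and -0.25 in treat against sham, which are not shown.

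The composition of the BEC-like class differed between groups. A family of 4 clusters, with Akr1c15 among the leading genes of each and Ttr among those of 3, took 33.0%, 66.4% and 80.4% of the class in sham 1, 2 and 3. Its share was 0.9% to 4.5% in ctrl and 1.3% to 19.1% in treat. The largest BEC-like cluster, outside this family, took at most 17.5% of the class in any sham sample. It took 7.88%, 40.3% and 89.3% in ctrl at days 1, 3 and 7, and 21%, 88% and 94.5% in treat. Pooled over samples, Abcc4 was 16.0, 13.2, 10.9 and 6.75 CPM in the 4 clusters of this family, led by Ttr, Ly6d, Scgb1c1 and Akr1c15, 11.3 CPM in the largest BEC-like cluster and 4.19 CPM in the cluster led by Lypd8 and Duoxa2, which was the main one in ctrl days 1 and 3, treat day 1 and sham 1. Another list of leading genes named Ttr in none of the 4 clusters, and Akr1c15 in all but the Scgb1c1 cluster. In that list the Scgb1c1 cluster, of 79 cells, had the fibroblast markers Col3a1, Col1a1 and Dcn. The clusters draw on different samples, so they were also compared within samples with at least 30 cells of both. Abcc4 was higher in the largest than in the Lypd8 cluster in 9 of 9 samples, but higher than in the Ttr cluster in 3 of 5 and than in the Ly6d cluster in 2 of 4, so those could not be ordered. Slc10a2 was 4.83 CPM in the largest cluster and 1.04 CPM in the Lypd8 cluster, higher in the largest in 7 of 9 samples. It was higher in the largest than in the Ttr cluster in 2 of 5 and than in the Ly6d cluster in 1 of 4. Nr1h4 had 3.73 CPM in the largest and 4.87 CPM in the Lypd8 cluster, higher in the largest in 4 of 9. It was higher in the largest than in the Ttr cluster in 3 of 5 and than in the Ly6d cluster in 0 of 4. The part of these shifts in the group differences was not tested beyond leaving out the whole family of 4 clusters, the one highest in Scgb1c1. This removed most of the class in sham 2 and 3. No call changed, but the log2 fold changes against sham moved to -0.36 for Abcc4, -0.41 for Slc51a, -0.68 for Nr1h4 and -1.09 for Abcc3 (adjusted p = 0.138 for Abcc3). Hepatocyte markers summed to 36.0 to 51.1 CPM in sham BEC-like cells and 46.0 to 164 CPM in the transplanted ones. The 7 enterocyte markers summed to 8.58 to 16.0 CPM in sham, 65.3 to 145 CPM in ctrl and 16.9 to 30.4 CPM in treat, with 1 to 4 of them at 0 in each sample. Goblet cell markers summed to 2945 to 3235 CPM in sham, 4578 to 6869 CPM in ctrl and 3025 to 3897 CPM in treat. Acinar markers summed to 156 to 496 CPM in sham and 54.3 to 126 CPM in transplanted samples. The part of these markers in the group differences was not tested.

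TGR5 was a fibroblast transcript in these ducts. Fibroblast-like cells held 97.1% of the Gpbar1 UMIs and 22.2% of all UMIs, and they were the highest class in 9 of 9 samples. The Gpbar1 UMIs of BEC-like cells numbered 57, against 54.9 expected from free RNA, and those of macrophage-like cells 42 against 44.6, which is the level of background. Schwann-like cells had 64 UMIs against 5.27. They read 38.3 and 60.1 CPM in sham 2 and 3 and 10.8 CPM in treat day 1, rested on 8 UMIs in ctrl day 1, and had no UMI in the other 5 samples, whose 9 to 94 cells allow levels of up to 5.25 to 251 CPM. Col1a1, Col3a1 and Mgp were among the leading genes of the Schwann-like cluster, and 9 fibroblast markers summed to 33484 and 36865 CPM in it in sham 2 and 3 and to 3691 to 17047 CPM in the other samples. The part of fibroblast RNA in this level was not tested. The rest of the classes had between 0 and 15 UMIs each. Among the genes whose class pattern was most like that of Gpbar1 over 17 classes were C1qtnf3, Grem1 and Scara5, with Pearson r of 0.993, 0.990 and 0.986, a description across classes that share libraries. For Abcc4 they were Ces2c, Cd59 and P2ry2, at 0.845, 0.814 and 0.811.

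Gpbar1 in fibroblast-like cells read 62.3, 48.3 and 77.2 CPM in sham, the first from 32 UMIs in 72 cells. It read 15.3, 36.2 and 7.02 CPM in ctrl at days 1, 3 and 7, and 43.7, 28.8 and 17.0 CPM in treat. All 6 transplanted samples were below all 3 sham samples. The 3 libraries of treat day 1 read 25.4, 75.4 and 31.3 CPM. In that sample the spread between libraries was therefore as wide as the range of the group means. The log2 fold change for transplanted against sham was -1.16 ± 0.46 and did not pass (edgeR, adjusted p = 0.231), where 1.79% of 11545 genes were called. Between treat and ctrl it was 0.64 ± 0.54 (adjusted p = 0.991), with 0% of genes called. In bulk or summed counts fewer cells of a type and less RNA per cell cannot be told apart, and here the level is per UMI of the class.

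**Figure D4:**
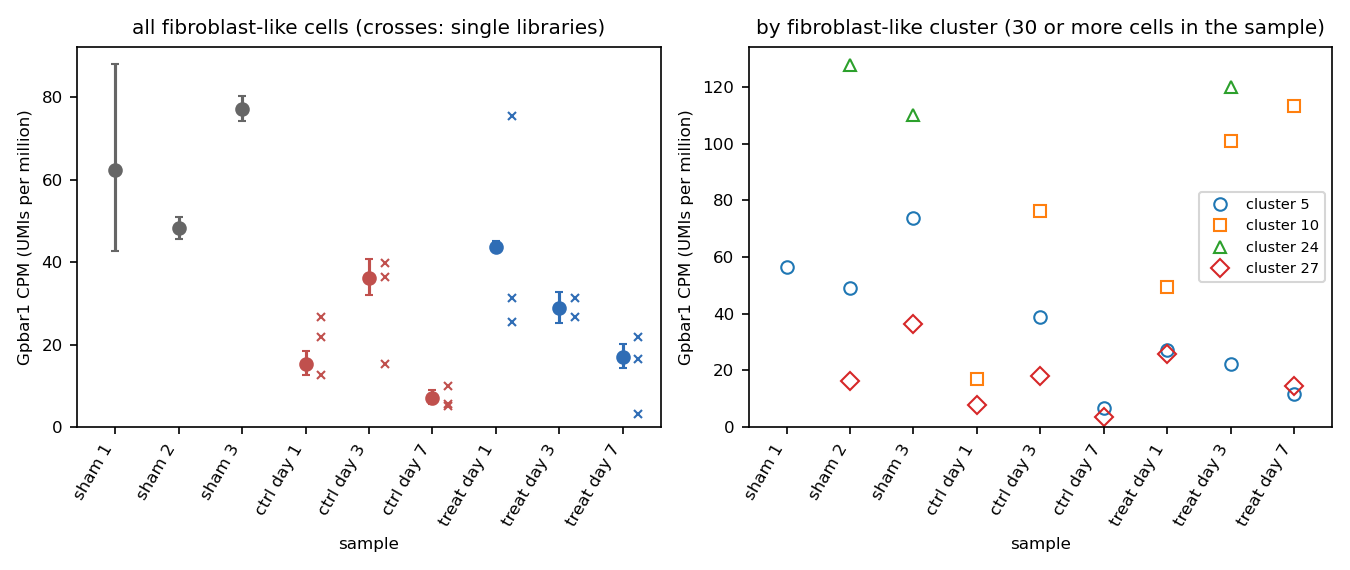
Gpbar1 level as CPM in fibroblast-like cells by sample. On the left, points are samples with 95% Poisson intervals (counting error only) and crosses are single libraries, and all 6 transplanted samples, from 7.02 to 43.7 CPM, lie under the 3 sham samples, from 48.3 to 77.2 CPM. On the right, the same samples are split into the 4 fibroblast-like clusters, shown where a sample had at least 30 cells: 5 (Ogn and Lum), 10 (Ptx3), 24 (Wnt5a and Notum) and 27 (Tnfaip6 and Ccl7).

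The fibroblast-like class was itself mixed. The 9 fibroblast markers summed to 10090 CPM in it in ctrl day 1, to 27075 CPM in treat day 1 and to 40660 to 63442 CPM in the other samples, and the part of this in the Gpbar1 level was not tested. A cluster of 1695 cells with Col4a5, Wnt5a, Notum and Ptch1 had the highest Gpbar1, at 115 CPM, together with 7.29 CPM of Nr1h4, and most of its cells came from sham 2 and 3. The largest cluster, of 8878 cells with Ogn and Lum, had a Gpbar1 level of 44.98 CPM, and the cluster led by Ptx3, mostly from treat day 1, 47.7 CPM. By sample the largest cluster read 56.4, 49.0 and 73.7 CPM in sham and 27.2, 22.4 and 11.8 CPM in treat at days 1, 3 and 7, with 38.7 and 6.80 CPM in ctrl at days 3 and 7. The Ptx3 cluster read 49.3, 101 and 113 CPM in treat, the last 2 resting on 39 and 37 UMIs. In the largest cluster alone the log2 fold change was -1.37 (adjusted p = 0.0855). Nr1h4 in fibroblast-like cells had -1.18 ± 0.56 against sham (adjusted p = 0.306), and treat against ctrl 1.85 ± 0.72 (adjusted p = 0.991). By arm it was -2.10 ± 0.72 for ctrl against sham (adjusted p = 0.176) and -0.25 ± 0.61 for treat against sham (adjusted p = 0.915). After TMM scaling the group means were 1.12 ± 1.02 CPM in sham, 0.32 ± 0.30 in ctrl and 1.34 ± 0.35 in treat (SD). The treat mean was thus not below that of sham. Abcc4 in EC-like cells read 11.5, 15.1 and 20.5 CPM in sham, 5.03, 11.2 and 8.76 CPM in ctrl, and 12.2, 10.7 and 14.3 CPM in treat. Its difference from sham was -0.60 ± 0.27 (adjusted p = 0.275), where 1.7% of genes were called. Over the classes other than BEC-like there were 6 tests of a gene in a class, and 0 were called for transplanted against sham or treat against ctrl. Besides those above they were Abcc4 in fibroblast-like cells (-0.14 ± 0.30 against sham, adjusted p = 0.824, and 0.91 ± 0.34 for treat against ctrl, adjusted p = 0.991), in VSMC-like cells (-0.53, adjusted p = 0.694) and in macrophage-like cells (-0.18, adjusted p = 0.782), where 0.826% and 12.1% of genes were called against sham. By arm, Abcc4 against sham was -0.60 in ctrl and 0.31 in treat in fibroblast-like cells. It was -1.12 and 0.06 in VSMC-like cells and -0.26 and -0.09 in macrophage-like cells, none of them called.

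Summed over all cells of a sample, 1 of 8 genes tested was called for transplanted against sham, where 12.9% of 16037 genes were called. This was Slc51a, at 1.25, 0.65 and 0.52 CPM in sham, 0.31, 0.37 and 0.35 CPM in ctrl, and 0.22, 0.18 and 0.21 CPM in treat. No transplanted sample reached the lowest sham sample. The log2 fold change was -1.19 ± 0.30 (adjusted p = 0.038), and the call was lost on leaving out any one of 8 samples, with an adjusted p between 0.049 and 0.115 over the 9 fits. Abcc3 (-1.08 ± 0.33, adjusted p = 0.066) and Nr1h4 (-1.02 ± 0.34, adjusted p = 0.076) did not pass, though DESeq2 called all 3, where it called 26.2% of all genes. Summed levels also carry the share of each class, whose part was not tested. Tuft-like cells were 5.79% to 22.3% of sham cells and 0.28% to 4.89% of transplanted cells. Gpbar1 summed over all cells ranged from 3.32 to 40.9 CPM within sham alone, beside fibroblast-like shares of 3.12% to 47.0%, and its fold change of -2.15 ± 1.04 did not pass (adjusted p = 0.186). Treat against ctrl gave 0 of 8, with 0% of genes called by edgeR, 581 at an unadjusted p under 0.05 and 12 by DESeq2.

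A wider list of 41 bile acid genes, none of them among the genes above, was read in the same BEC-like fits. It covered uptake, export, receptors and transcription factors, the FGF axis, and synthesis and conjugation. Of the 41 genes 37 were among the features and 23 were tested. Transplanted against sham and treat against ctrl each called 0 of 23, where 4.12% and 0% of all genes were called, and the median log2 fold changes were 0.09 and 0.09, against -0.002 and 0.03 over all genes. Ctrl against sham called 1 of 23, where 6.28% of genes were called. It was Abcb4, which encodes the phosphatidylcholine floppase MDR3 of the canalicular membrane. After TMM scaling its level in BEC-like cells was 1.02, 2.31 and 2.50 CPM in sham, 10.4, 11.8 and 5.00 CPM in ctrl, and 3.06, 7.37 and 3.61 CPM in treat. The ctrl and sham samples did not overlap, and the log2 fold change was 2.12 ± 0.48 (adjusted p = 0.036). The call was lost on leaving out sham 1, 2 or 3, ctrl day 1 or 3, or treat day 7, with an adjusted p of up to 0.128. The value was 4.59 without the family of BEC-like clusters highest in Scgb1c1. The hepatocyte markers in BEC-like cells were also higher in the ctrl samples, at 74.6, 143 and 164 CPM, and their part in this result was not tested. Slc10a1, the hepatocyte sodium-dependent uptake carrier, and Fgfr4, the receptor for the ileal FGF signal, were lower in ctrl but did not pass, at -1.23 ± 0.43 (adjusted p = 0.108) and -1.68 ± 0.56 (adjusted p = 0.099).

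In the 6 tested classes other than BEC-like cells, 5 of 80 tests of a gene of the wider list in a class were called for transplanted against sham, where 2.93% of all such tests were. In EC-like cells 2 of 15 genes fell and 0 rose, where 1.7% of genes were called. Slco1a4, an organic anion uptake carrier, read 46.3, 61.8 and 73.0 CPM after TMM scaling in sham, 5.88, 3.31 and 9.85 CPM in ctrl at days 1, 3 and 7, and 17.6, 18.1 and 23.2 CPM in treat. The 3 groups did not overlap, with treat between ctrl and sham. The log2 fold change against sham was -2.39 ± 0.26 (adjusted p = 0.0028), and it passed under all 15 alternatives run in these classes. Those were other scalings, no filter on low counts, only the groups compared, DESeq2, each sample left out and single libraries as samples. Other cell filters, another clustering and subtraction of free RNA were not among them. Abcb4 in the same cells read 48.3, 48.3 and 64.1 CPM in sham, 17.6, 10.9 and 10.6 CPM in ctrl, and 48.0, 34.2 and 42.2 CPM in treat, with -1.21 ± 0.21 against sham (adjusted p = 0.024). Its lower level in ctrl was thus seen in EC-like cells while the ctrl level was higher in BEC-like cells, a contrast between classes that was not tested. Treat against ctrl was 1.54 ± 0.33 for Slco1a4 (adjusted p = 0.425) and 1.68 ± 0.25 for Abcb4 (adjusted p = 0.143), neither past the threshold. This fit held no term for the day, which ctrl and treat samples share in pairs.

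In fibroblast-like cells 2 of 15 genes fell and 0 rose, where 1.79% of genes were called. Slco2b1, another organic anion uptake carrier, had -2.85 ± 0.56 (adjusted p = 0.039), with 75.2 CPM in sham 1, 15.7 and 22.8 CPM in sham 2 and 3, and 3.03 to 13.8 CPM in the transplanted samples. Slc10a1 had -1.55 ± 0.27 (adjusted p = 0.026), at 8.35 to 20.6 CPM in sham and 4.10 to 7.76 CPM in the transplanted samples. In macrophage-like cells 1 of 13 genes rose and 0 fell, where 12.1% of genes were called. This was Nr1h3, the oxysterol receptor LXRα, with 2.43 ± 0.58 (adjusted p = 0.030), at 1.13, 5.70 and 3.32 CPM in sham and 6.81 to 39.7 CPM in the transplanted samples. These 3 calls and that of Abcb4 were each lost on leaving out sham 2, sham 3 or ctrl day 3, and those of Slco2b1 and Slc10a1 on leaving out some other samples as well. None of 16 genes was called in VSMC-like, of 9 in NK&T-like or of 12 in tuft-like cells, where 0.826%, 0.0939% and 0.0992% of genes were. Over all cells Fgfr4, Slco1a4 and Slco2b1 were lower, 3 of 27 tested where 12.9% of genes were called, at -1.49 ± 0.34, -2.33 ± 0.44 and -1.53 ± 0.41 (adjusted p = 0.029, 0.020 and 0.043). Treat against ctrl called none of the list in any of these classes or over all cells, with 0% of genes called.

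Ctrl against sham alone called Abcb4 and Slco1a4 in EC-like cells (2.27% of genes called), Slc10a1 in fibroblast-like cells (1.6%), Nr1h3 in macrophage-like cells (6.29%), and Fgfr4 and Slco1a4 over all cells (8.85%), in the directions given above. It also called Abcb4 in VSMC-like cells, 1 of 16 genes where 0.687% were called, at 4.24, 14.3 and 18.2 CPM in sham, 0.35, 1.29 and 1.85 CPM in ctrl, and 11.1, 8.42 and 9.07 CPM in treat. The log2 fold change was -3.32 ± 0.62 (adjusted p = 0.044), and the call was lost on leaving out any sample but sham 1, with an adjusted p of up to 0.207. None was called in NK&T-like or tuft-like cells, where 0.0104% and 0.0124% of genes were. Treat against sham called none of the list in any class or over all cells, and the lowest adjusted p was 0.064. Of all genes it called 2.17% in macrophage-like, 0.195% in EC-like, 0.0953% in fibroblast-like, 0.073% in NK&T-like, 0.0697% in VSMC-like and 0% in tuft-like cells, and 0% over all cells.

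Fabp6, the intracellular carrier of the ileum, was close to absent, with 4 UMIs in 140366 cells. Differences between groups could not be tested at this depth for Fabp6, Abcc2 or Slc51b in BEC-like cells.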

How the data were processed

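UMI counts per gene and cell barcode were used as deposited by the authors, made with Cell Ranger 5.0.1 per the submitters' processing notes, which also name Seurat 3.2.0. The build and annotation are not given in the sources used here. Barcodes were kept with 400 to 6000 genes, at most 25% mitochondrial and 3% hemoglobin UMIs. Of the 150277 barcodes passing, 9911 were removed as doublets above the 92.5th percentile of a score against simulated doublets. Cells were clustered by the Leiden method (resolution 0.9, leidenalg 0.10.2), and a cluster was named from marker lists when at least 3 markers were detected and its leading genes did not favor another class. Cluster names were rebuilt here and may differ from the authors' own. UMIs were summed per class and sample over its libraries. Any pair of libraries shared at most 1.26% of barcodes, and a pair of 1 sample at most 0.347%. edgeR 4.0.16 (filterByExpr, TMM, quasi-likelihood, Benjamini-Hochberg over all genes) was run on all 9 samples, with DESeq2 1.42.0 as an alternative, and SE was derived from the F statistic. The procedure was tested on simulated data. Free RNA was estimated from barcodes with at most 100 UMIs.

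The 10 genes, the wider bile acid list and the marker lists were chosen with earlier results of these data known. Named genes were all members, list genes called in BEC-like cells, and the 3 genes of most similar class pattern for members of at least 10 CPM in a class, as a mean over samples with at least 20 of its cells. List genes named outside BEC-like cells, and Slc10a1 and Fgfr4 there, were named after their values were seen. Ctrl and treat samples of one number share the day after transplantation, as the labels give it. The deviations of same-day samples correlated at 0.40, -0.09 and 0.57 for days 1, 3 and 7 in BEC-like cells.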

Additional observations from a re-analysis of the deposited data

How the results depend on the processing

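In BEC-like cells the count of genes called stayed at 0 under every alternative for transplanted against sham, treat against sham and treat against ctrl. These were other scalings, no filter on low counts, DESeq2, only the groups compared, other cell filters, subtraction of free RNA, another clustering, cycling epithelium added, single libraries as samples, and each sample left out in turn. The day as a replicate block gave 0 calls in BEC-like cells and 0 over all cells for treat against ctrl, and changed no call. For ctrl against sham the count ranged from 0 to 1 on leaving out single samples. Over all cells, transplanted against sham, it ranged from 0 to 2 on leaving out samples and was 3 by library size only. By DESeq2 it was 3, where 26.2% of all genes were called. It was 0 with no filter, 0 with each library as its own sample and 0 with no doublet removal. Counts for the wider list were 2 by DESeq2, which called 10.6% of all genes, and 0 to 2 on leaving out samples for transplanted against sham, and 0 to 1 for treat against ctrl. In the other classes the list had 12 calls by DESeq2, which called 6.25% of all tests there, and 1 to 7 on leaving out samples, with 1 left without sham 2, sham 3 or ctrl day 3, and 3 without ctrl day 7 or treat day 7, against 5 with all samples. Ctrl day 7 was the sample whose removal gave the highest count in BEC-like cells, for the wider list and for ctrl against sham, sham 1 for the list in the other classes, and ctrl day 1 for all cells. The cause was not tested. Under most of these settings the share of all genes called is not given here. A change in these counts can therefore not be told apart from a change in calls over all genes.

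Values near 0 changed sign or size. Slc10a2 in BEC-like cells, transplanted against sham, was -0.079 by library size only, -0.29 at Leiden resolution 2, -0.049 without the cluster family highest in Scgb1c1, and -0.63 to 0.29 on leaving out samples. Abcc3 was 0.29 at resolution 2, -1.09 without the cluster family highest in Scgb1c1, and -0.29 to 0.082 on leaving out samples. For treat against ctrl, leaving out samples gave -0.24 to 0.63 for Abcc3 and -0.38 to 1.61 for Slc10a2. Alternatives chosen after seeing the data were cycling epithelium added, ctrl day 3 without libraries 2 and 3, the largest fibroblast-like cluster alone, single libraries left out of a sample, and those for the other classes and the wider list. The counts were sparse: the share of BEC-like cells with a UMI, as a median over samples, was 0.62% thinned and 2.55% unthinned for Slc10a2, and 1.72% and 7.08% for Abcc4.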
